A study of Mus musculus with 12 samples.

Results

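BAT of *Il18*-/- mice was compared with BAT of *Il18*+/+ mice at 12 weeks of age, gene by gene and then by gene programme and cell type. The 6 arrays were chosen by the age in the labels, out of 12 arrays in the series, and 3 of them carried RNA of *Il18*-/- and 3 of *Il18*+/+ mice. The series holds 3 arrays of each genotype at 6 weeks of age as well, which served here to estimate the spread between replicates and to show where the 12-week difference departed from the 6-week one. RNA of whole BAT from untreated mice was hybridized to 1-colour Agilent arrays, 1 array per RNA. According to the study's methods the mice were males killed in the morning and the *Il18*+/+ mice were littermates. The labels give the strain BALB/c for both genotypes, whereas the methods give C57Bl/6. They also describe tissue kept in RNAlater and a miRNeasy kit, whereas the methods describe freezing in liquid nitrogen and a Sepasol kit. Slide 1 carried every *Il18*+/+ array together with 2 of the 6-week *Il18*-/- arrays, and slide 2 carried the other 6-week *Il18*-/- array together with the 3 *Il18*-/- arrays of the older mice. At 12 weeks of age genotype and slide therefore cannot be told apart.

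Caspases of the inflammasome activate the cytokine IL-18 by cleavage. It signals through MyD88 and IRAK kinases, above all in NK and T cells, where it promotes the release of interferon-gamma. Brown adipocytes burn fat through the uncoupling protein UCP1 when noradrenaline raises cyclic AMP (cAMP). This cascade switches on *Dio2*, which activates thyroid hormone inside the cell, and the coactivator PGC-1α, which drives genes of the mitochondria.

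The *Il18*+/+ arrays of 12 weeks had 32269, 32121 and 35136 of 59305 non-control spots well above background, and the *Il18*-/- arrays had 32904, 29619 and 31839. A level is given below as the log2 intensity of a probe set against the 75th percentile of the well-above-background spots of its array, so that a level of 0 equals that reference, and values are listed in the order of arrays 1, 2 and 3. A change is the mean of the *Il18*-/- arrays minus the mean of the *Il18*+/+ arrays on the log2 scale. It was called where the p of limma, adjusted over 28743 probes, was below 0.05. The number of arrays limits the precision.

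The *Il18* probe, at chr9:50389761-50389820 in the mm9 build, read -3.58, -4.44 and -3.56 in *Il18*+/+ and -4.13, -4.38 and -4.57 in *Il18*-/- mice. The groups overlapped, and the change of -0.50 did not pass the test (adjusted p = 0.296). Whether the probe lies in the deleted part of the gene is not stated in the files, and the genotypes are those of the labels. The BAT label was checked against *Ucp1*, *Cidea*, *Cox7a1* and *Cox8b*, defining genes of brown adipocytes. Their levels were between 6.56 and 8.25 on all 6 arrays, well above background and above the reference. The Y-linked *Eif2s3y* was well above background on all 6 arrays, and *Xist* was not tested because in no group was it well above background on all 3 arrays. Of the 5 strain check genes tested, *Erdr1* and *Nnt* were called higher in *Il18*-/- mice. *Nnt*, a mitochondrial transhydrogenase that is disrupted in C57BL/6J mice, had levels of -2.0, -2.65 and -1.91 in *Il18*+/+ and -0.71, -0.54 and -0.96 in *Il18*-/- mice. The groups of *Nnt* did not overlap (change 1.45, adjusted p = 0.00921). At 6 weeks of age it read -0.98, -0.61 and -0.45 in *Il18*+/+ and -0.46, -0.48 and -1.20 in *Il18*-/- mice (adjusted p = 0.976), so that the 12-week *Il18*+/+ arrays lay below the other 9 arrays. The same held for *Erdr1*, at -3.21, -3.11 and -1.62 in *Il18*+/+ and 2.38, 2.38 and 1.93 in *Il18*-/- mice at 12 weeks and at 2.25, 3.00 and 1.36 against 1.53, 1.17 and 1.69 at 6 weeks of age (adjusted p = 0.000155 and 0.555). Whether the genotypes differed in strain background was not tested.

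Under the scaling of the methods most genes were lower in *Il18*-/- mice, a shift that centring each array on its median removes by construction. Of 28743 probes tested at 12 weeks of age, 2495 (8.68%) were called in limma, and 8018 passed at an unadjusted p under 0.05, the level meant wherever an unadjusted p is named below. Of 21333 genes, each read by its brightest probe, 138 (0.647%) were higher and 1754 (8.22%) were lower in *Il18*-/- mice. The called counts of each list stand beside these shares. At an unadjusted p 511 genes (2.4%) were higher and 5598 (26.2%) lower, the shares beside which the unadjusted counts of each list stand. The median change of all genes was -0.26, and 77.4% of the changes were negative. The genotypes did not overlap for 36.8% of the genes. The shift was larger in dim probes, with a median change of -0.49 in the dimmest eighth of the probes (median level -6.07) and -0.18 in the brightest eighth (median level 3.29). With each array so centred, the median change of the genes was 0.01, and 2140 genes (10%) were higher and 1941 (9.10%) lower. The counts of each list after centring stand beside these shares. Changes after this centring are called relative changes below, since they are set against the median of all tested probes. Under both scalings 1523 genes were lower and 138 were higher. A ratio above 2 or below 0.5, the criterion of the methods, held for 1462 genes, 115 higher and 1347 lower. The number of called probes was 1456, 1057 and 360 without *Il18*+/+ array 1, 2 or 3 and 2020, 621 and 663 without *Il18*-/- array 1, 2 or 3. With the slide as a block, which only the *Il18*-/- arrays of 6 weeks can estimate, 14 probes were called.

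Of the 31 tested genes of brown adipocyte identity and thermogenesis, 9 were lower and 0 higher by limma's adjusted p (15 and 0 at an unadjusted p), beside 8.22% and 0.647% of all genes (26.2% and 2.4% at an unadjusted p). The median change of the list was -0.48 and its median relative change -0.21, beside -0.26 and 0.01 for all genes. *Dio2* encodes the deiodinase that converts thyroxine to active thyroid hormone. Its probe at chr12:91963235-91963294 (mm9) read 1.75, 2.76 and 2.0 in *Il18*+/+ and -1.73, -2.67 and -2.56 in *Il18*-/- mice. Every *Il18*-/- array lay below every *Il18*+/+ array, and the change was -4.49 (SE 0.37, adjusted p = 9.98e-05; relative change -4.23). *Ppargc1a*, which encodes PGC-1α, read 1.72, 2.65 and 2.36 in *Il18*+/+ and 0.37, 0.71 and 0.40 in *Il18*-/- mice. Its groups did not overlap either (change -1.75, SE 0.36, adjusted p = 0.0154), and its dimmer probe gave -1.34 (adjusted p = 0.0509). The *Il18*+/+ arrays of *Ucp1* read 7.66, 7.66 and 8.0 and the *Il18*-/- arrays 7.31, 6.56 and 7.09, a change of -0.79 (adjusted p = 0.0422).

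Other genes of heat production and of its fuel supply were called too. *Ffar4*, a receptor for long-chain fatty acids, read -0.10, 0.62 and 0.32 in *Il18*+/+ and -1.60, -2.28 and -2.43 in *Il18*-/- mice. *Gk*, the glycerol kinase that lets brown fat rebuild triglyceride, read -0.03, 0.01 and 0.49 against -1.44, -1.74 and -1.34. Neither gene's groups overlapped, with changes of -2.38 (adjusted p = 0.000779) and -1.66 (adjusted p = 0.00703). *Ppargc1b*, the close relative of *Ppargc1a*, changed by -1.15 (adjusted p = 0.00411). The smaller changes past the threshold were those of the transcription factors *Cebpb* (-0.83) and *Ppara* (-0.78) and of the secreted factor *Nrg4* (-0.82). Their calls held without *Il18*+/+ array 1 for *Cebpb*, without *Il18*+/+ array 2 for *Ppara*, and without *Il18*+/+ array 1 or *Il18*-/- array 1 for *Nrg4*, and were lost without any other array. The 2 dimmer probes of *Ppara* gave -1.25 (adjusted p = 0.00685) and -0.09 (adjusted p = 0.836), and those of *Nrg4* gave 0.26 (adjusted p = 0.365; relative change 0.53, adjusted p = 0.00679) and -0.78 (adjusted p = 0.045). *Ucp3* was not called on its brighter probe (-0.74, adjusted p = 0.0597) and was on its dimmer probe (-1.45, adjusted p = 0.00411). Among the members that were not called, the lipid droplet protein *Cidea* changed by -0.14, the respiratory chain subunits *Cox7a1* and *Cox8b* by -0.04 and -0.18, the receptor *Adrb3* by -0.01 and the master regulator *Pparg* by 0.29. *Prdm16* (-0.85, adjusted p = 0.0772), *Slc27a2* (-0.66), *Kcnk3* (-0.62), *Mpzl2* (-0.61), *Plin5* (-0.50) and *Bmp7* (-0.48) were not called either, though their groups did not overlap. *Bmp8b* changed by 1.08 (adjusted p = 0.262). Of the 31 changes 25 were negative and 6 positive. The thyroid hormone list had 4 of 13 genes lower and 0 higher (5 and 0 at an unadjusted p), with a median change of -0.24 and a median relative change of 0.02. Among the 4 were *Dio2*, the transporter *Slc16a10* (-1.04) and the retinoid X receptor *Rxrg* (-0.65). The other probes of *Slc16a10* and *Rxrg* were not called (-0.57 in each, adjusted p = 0.172 and 0.0872), and after centring 3 genes of the list were lower and 1 higher.

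The calls of *Dio2*, *Ffar4*, *Gk* and *Ppargc1b* held whichever array was left out, whereas that of *Ppargc1a* was lost without *Il18*+/+ array 2 or 3 or *Il18*-/- array 3 (adjusted p = 0.0529, 0.0732 and 0.0552). The call of *Ucp1* held only without *Il18*-/- array 1 (change -0.95, adjusted p = 0.0334), and without *Il18*-/- array 2 its change was -0.57 (adjusted p = 0.147). The brown adipocyte list had 7, 5 and 4 lower genes without *Il18*+/+ array 1, 2 or 3 and 7, 5 and 4 without *Il18*-/- array 1, 2 or 3, and the thyroid hormone list had 1 or 2 without any array. Under a slide block *Dio2* (-5.02, adjusted p = 0.0162) and *Ppargc1a* (-3.27, adjusted p = 0.0139) were called, and *Ucp1* was not (-0.99, adjusted p = 0.89). Fewer cells of a type and less RNA per cell cannot be told apart in whole BAT.

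**Figure D1:**
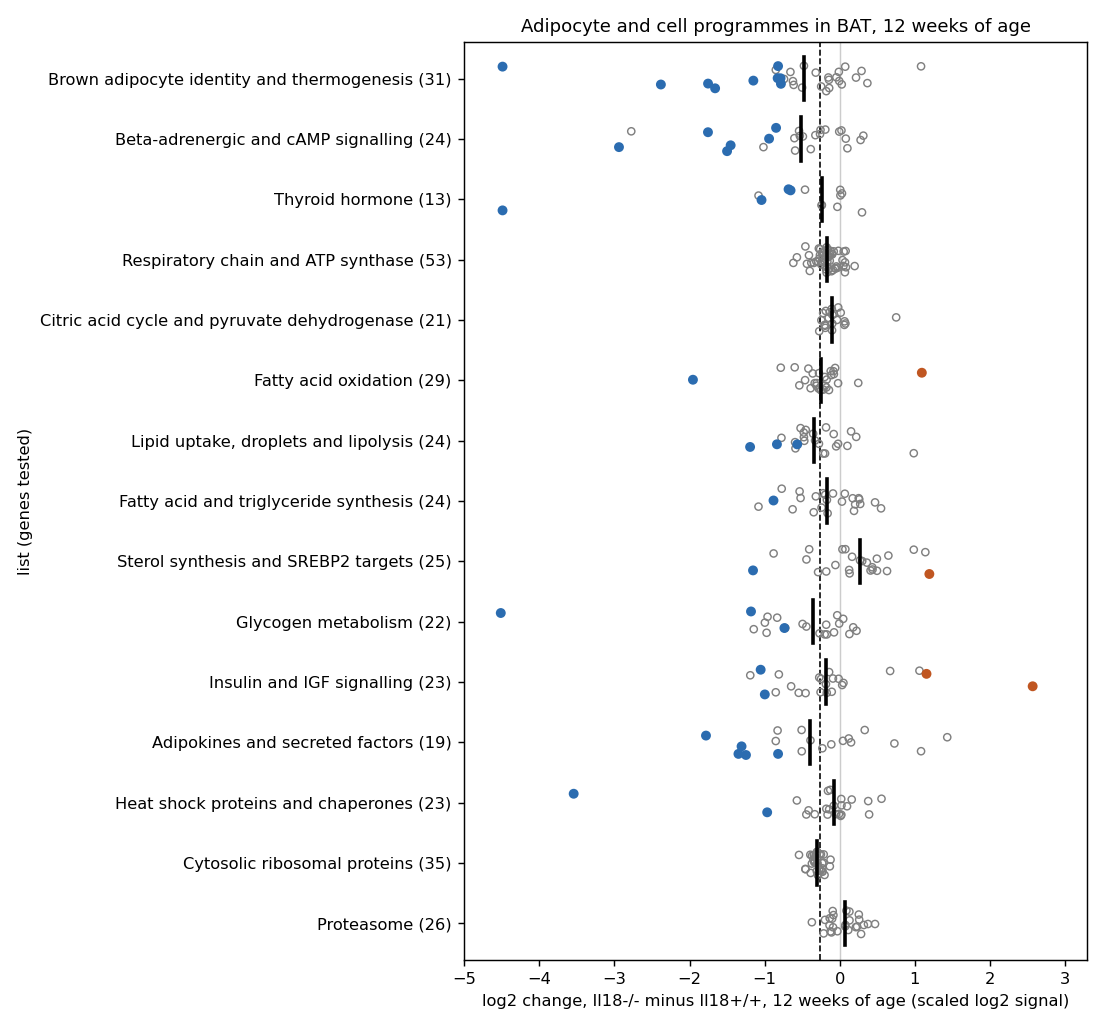
Change (log2, *Il18*-/- minus *Il18*+/+) of each tested gene in 15 lists of adipocyte and general cell programmes at 12 weeks of age, with filled points for called genes (blue lower, orange higher), a black bar at each list's median and a dashed line at the median of all genes (-0.26). *Dio2* (-4.49) leads the brown adipocyte list, while the 53 respiratory chain genes lie close to the dashed line with a median of -0.17.

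Of 24 tested genes that act in the cAMP cascade or are switched on by it, 6 were lower and 0 higher in limma (10 and 0 at an unadjusted p), with a median change of -0.51 and a median relative change of -0.25. *Nr4a2*, a nuclear receptor induced within an hour of cAMP signalling in many cells, read 2.30, 2.90 and 0.71 in *Il18*+/+ and -1.37, -0.71 and -0.84 in *Il18*-/- mice. Its groups did not overlap although *Il18*+/+ array 3 lay well below the other 2 (change -2.94, SE 0.51, adjusted p = 0.0086). *Pde4d*, the phosphodiesterase that breaks cAMP down, read -0.25, 0.15 and -0.25 against -1.51, -1.52 and -1.67, a change of -1.45 (SE 0.20, adjusted p = 0.00275). The adenylyl cyclases *Adcy5* and *Adcy3*, which make cAMP, changed by -1.50 and -0.85, the kinase *Sik1* by -1.75 and the cAMP-responsive repressor *Crem* by -0.94. *Gnas*, the stimulatory G protein and brightest gene of the list, changed by -0.53 and was not called (adjusted p = 0.0726), while its dimmer probe was (-1.26, adjusted p = 0.00848). The dimmest of 3 *Adcy5* probes was not called (-1.06, adjusted p = 0.119). After centring *Sik1* (adjusted p = 0.0615) and *Adcy3* (adjusted p = 0.0719) were not called. The call of *Sik1* held only without *Il18*-/- array 2 and that of *Adcy3* only without *Il18*+/+ array 1 or *Il18*-/- array 1, while *Adcy5* was lost without *Il18*+/+ array 2 or *Il18*-/- array 3 and *Crem* without *Il18*+/+ array 2, *Il18*+/+ array 3 or *Il18*-/- array 2. *Nr4a2* and *Pde4d* were called whichever array was left out. The list had 5, 2 and 3 lower genes without *Il18*+/+ array 1, 2 or 3 and 5, 4 and 3 without *Il18*-/- array 1, 2 or 3. Once the slide was a block, none of the 24 was called, and the median change was -0.51.

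The promoters of *Dio2*, *Nr4a2* and *Ppargc1a*, 3 genes of these lists that are known to respond to cAMP, are shown because their transcripts were lower together. Each is the 250 bases upstream of the annotated start, from RefSeq in build GRCm38.p6, written 5′ to 3′ on the minus strand that the gene occupies, with matches to the cAMP response element in capitals. They lie at chr12:90739039-90739288 for *Dio2*, chr2:57124004-57124253 for *Nr4a2* and chr5:51567726-51567975 for *Ppargc1a*. Both strands were searched for the whole element TGACGTCA and for the shorter TGACG, which the whole element contains.
Dio2: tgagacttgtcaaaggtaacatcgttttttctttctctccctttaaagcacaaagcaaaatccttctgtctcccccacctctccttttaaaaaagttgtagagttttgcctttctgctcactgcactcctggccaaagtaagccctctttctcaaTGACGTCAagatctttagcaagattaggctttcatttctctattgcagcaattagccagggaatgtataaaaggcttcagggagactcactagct
Nr4a2: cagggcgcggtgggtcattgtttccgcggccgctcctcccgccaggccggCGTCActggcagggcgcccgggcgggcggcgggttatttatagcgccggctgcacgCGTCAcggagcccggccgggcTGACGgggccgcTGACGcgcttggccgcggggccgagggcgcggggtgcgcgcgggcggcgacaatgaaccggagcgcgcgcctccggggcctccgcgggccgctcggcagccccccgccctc
Ppargc1a: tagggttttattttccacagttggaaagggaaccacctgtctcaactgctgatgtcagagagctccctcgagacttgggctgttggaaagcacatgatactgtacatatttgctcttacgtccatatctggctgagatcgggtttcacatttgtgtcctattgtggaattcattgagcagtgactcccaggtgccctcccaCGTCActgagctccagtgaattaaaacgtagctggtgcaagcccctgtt
*Dio2* held 1 whole element, *Nr4a2* held 4 short elements and *Ppargc1a* held 1. Of the 15 genes that were lower in the brown adipocyte and cAMP lists, 12 had a window, of which 1 held the whole element (*Dio2*) and 6 the short one (*Cebpb*, *Dio2*, *Nr4a2*, *Ppara*, *Ppargc1a* and *Ucp1*). Of the 27 other tested members with a window, 1 held the whole and 7 the short element. Among all 32851 windows of the same length, 1.55% held the whole and 17.8% the short element. A match is a description of the letters and was not tested for binding.

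Lists of the mitochondrial machinery held no called gene before centring. In limma 0 of 53 genes of the respiratory chain and ATP synthase were called (4 lower at an unadjusted p), with a median change of -0.17 and a median relative change of 0.10. The citric acid cycle and pyruvate dehydrogenase had 0 of 21 called (1 higher at an unadjusted p, median -0.10, relative 0.16), and the mitochondrial ribosome and biogenesis list had 0 of 28 (2 lower at an unadjusted p, median -0.17, relative 0.10). *Cox6a1* and *Mrpl20*, the brightest genes of the respiratory chain and mitochondrial ribosome lists, changed by -0.27 and -0.12. After centring, 3, 3 and 1 members of these lists were higher and 0 lower. Without *Il18*-/- array 2 the citric acid cycle list held 1 higher gene, and its median turned to 0.07. Of 29 genes of fatty acid oxidation, 1 was higher and 1 lower, with a median change of -0.25 and a median relative change of 0.01 (2 higher and 0 lower after centring). *Slc25a20*, the carnitine carrier that brings fatty acids into mitochondria, read 0.61, 0.68 and 0.59 in *Il18*+/+ and 1.78, 1.43 and 1.95 in *Il18*-/- mice, and *Acot1*, an acyl-CoA thioesterase, read -0.54, 0.49 and -0.53 against -1.77, -2.37 and -2.29. Neither gene's groups overlapped (changes 1.09 and -1.95, adjusted p = 0.0446 and 0.0219). The call of *Slc25a20* was lost whichever array was left out, and its change was -0.07 with the slide as a block. The oxidation list had 1 lower gene without *Il18*+/+ array 1 or *Il18*-/- array 1 and 0 without the others.

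In lipid handling, 3 of 24 genes of lipid uptake, droplets and lipolysis were lower and 0 higher (10 and 1 at an unadjusted p), with a median change of -0.34 and a median relative change of -0.08 (2 higher and 2 lower after centring). They were *G0s2*, an inhibitor of the lipase ATGL (-1.19), the glycerol channel *Aqp7* (-0.84) and lipoprotein lipase *Lpl*, which frees fatty acids from circulating triglyceride (-0.57, relative change -0.30 with adjusted p = 0.134). The carrier *Fabp4*, brightest of the list, changed by -0.33 and was not called. Fatty acid and triglyceride synthesis had 1 of 24 lower and 0 higher (6 and 0 at an unadjusted p), with a median change of -0.17 and a median relative change of 0.10. That gene was *Dgat1*, which catalyses the last step to triglyceride (-0.89). Each of these 4 calls was lost without *Il18*+/+ array 3. The uptake list held 0 lower genes in limma without any array but *Il18*-/- array 3, without which it held 1 (10, 7 and 6 at an unadjusted p without *Il18*+/+ array 1, 2 or 3). The synthesis list held 2 without *Il18*+/+ array 1, 3 without *Il18*-/- array 1 and 0 without the others, and its median turned to 0.25 without *Il18*-/- array 2 and was -0.44 without *Il18*-/- array 1.

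The 25 tested genes of sterol synthesis had a median change of 0.27 and a median relative change of 0.54, with 1 gene higher and 1 lower (3 and 3 at an unadjusted p). After centring 5 were higher and 1 lower. *Insig1*, a sterol-regulated brake on SREBP processing, read -0.52, -0.24 and -0.51 in *Il18*+/+ and 1.24, 0.16 and 0.91 in *Il18*-/- mice. The groups of *Insig1* did not overlap (change 1.19, adjusted p = 0.0445). Without *Il18*-/- array 1, the array with the highest median in this list, the median change was -0.07, and without *Il18*-/- array 2, the lowest, it was 0.54. *Il18*-/- array 1 also stood apart in the liver list below (median deviation 2.74), and whether the lists are linked was not tested. The call of *Insig1* held only without *Il18*-/- array 2 (change 1.5). The sterol list held 1, 1 and 0 lower genes without *Il18*+/+ array 1, 2 or 3 and 2, 1 and 0 without *Il18*-/- array 1, 2 or 3, and its higher genes numbered 2 without *Il18*-/- array 2 and 0 without any other. The median was 0.02 with the slide as a block.

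Glycogen metabolism had 3 of 22 genes lower and 0 higher (6 and 0 at an unadjusted p), with a median change of -0.36 and a median relative change of -0.09 (2 higher and 2 lower after centring). *Ppp1r3d*, a subunit that directs protein phosphatase 1 to glycogen, read 2.13, 2.16 and 2.25 in *Il18*+/+ and 0.77, 1.19 and 1.03 in *Il18*-/- mice. The groups were far apart beside their spread (change -1.18, adjusted p = 0.00705). Its relative *Ppp1r3g* was widely spread within each genotype, with -1.21, -0.15 and -3.17 against -7.77, -4.80 and -5.51, with 1 of the *Il18*-/- arrays not well above background. Glycogen synthase *Gys1* changed by -0.74, and its dimmer probe was not called (-0.47, adjusted p = 0.0874). The list held 2 to 4 lower genes with any array left out, the most without *Il18*-/- array 1.

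In insulin and IGF signalling 2 of 23 genes were higher and 2 lower (4 and 6 at an unadjusted p), with a median change of -0.18 and a median relative change of 0.08 (4 higher and 1 lower after centring). *Pik3ip1*, an inhibitor of PI3 kinase, read -2.37, -3.15 and -2.38 in *Il18*+/+ and -0.16, -0.13 and 0.11 in *Il18*-/- mice. *Trib3*, a pseudokinase that binds AKT, read -0.35, -0.14 and -0.09 against 1.18, 0.88 and 0.82. *Irs1*, the docking protein of the insulin receptor, read 1.63, 2.08 and 1.41 against 0.89, 0.35 and 0.70. None of these groups overlapped, and the changes were 2.57, 1.16 and -1.05 (adjusted p = 0.00135, 0.0101 and 0.0196). *Trib1*, a relative of *Trib3*, changed by -1.0, or by -0.73 relative to all probes (adjusted p = 0.148). *Pik3ip1* and *Trib3* were called without any 1 array, whereas *Irs1* was lost without *Il18*+/+ array 2, *Il18*-/- array 2 or *Il18*-/- array 3. Without *Il18*+/+ array 2, *Il18*-/- array 2 or *Il18*-/- array 3 the list held 0 lower genes, 1 without *Il18*+/+ array 1 or 3 and 2 without *Il18*-/- array 1. Glucose uptake and glycolysis had 1 of 22 lower and 0 higher (5 and 0 at an unadjusted p), with a median change of -0.26, a median relative change of 0.00 (1 higher and 1 lower after centring) and a median of 0.03 without *Il18*-/- array 2. It was *Pfkfb1*, which sets fructose 2,6-bisphosphate (-0.79), and its call was lost without *Il18*+/+ array 3, *Il18*-/- array 2 or *Il18*-/- array 3.

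Secreted products of fat were lower in part. Of 19 adipokines and secreted factors 5 were lower and 0 higher (8 and 1 at an unadjusted p), with a median change of -0.39 and a median relative change of -0.12 (1 higher and 4 lower after centring). The median was -0.09 without *Il18*+/+ array 3 and -0.26 without *Il18*-/- array 1. *Cfd*, the complement protease adipsin, was the brightest of them and read 7.72, 7.68 and 7.86 in *Il18*+/+ and 6.42, 6.46 and 6.33 in *Il18*-/- mice. Resistin (*Retn*) read 4.71, 4.58 and 4.67 against 3.56, 3.38 and 3.28, and angiotensinogen (*Agt*) read -3.75, -4.42 and -3.96 against -5.54, -6.16 and -5.78. In each the *Il18*-/- arrays lay below all *Il18*+/+ arrays (changes -1.35, -1.25 and -1.78, adjusted p = 0.00311, 0.00717 and 0.00827), and each call held whichever array was left out. The peptide *Apln* (-1.31) and *Nrg4* completed the 5. Leptin (*Lep*), read at -2.74, -4.27 and -3.01 in *Il18*+/+ and -2.52, -1.63 and -1.56 in *Il18*-/- mice, was the other way and was not called (1.43, adjusted p = 0.116). White adipocyte markers had 2 of 8 lower and 0 higher (4 and 1 at an unadjusted p), *Retn* and the amino acid transporter *Slc7a10* (-0.94), with a median change of -0.40 and a median relative change of -0.13. The adipokine list held 3 lower genes without *Il18*+/+ array 2, *Il18*+/+ array 3 or *Il18*-/- array 3, and the white adipocyte list held 1 without *Il18*+/+ array 1 or 3 or *Il18*-/- array 2 or 3.

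Among 17 tested apolipoproteins and efflux genes 4 were lower and 1 higher (6 and 2 at an unadjusted p), with a median change of -0.32 and a median relative change of -0.05 (3 higher and 3 lower after centring). *Apoe*, which carries cholesterol between cells, read 6.44, 6.15 and 6.83 in *Il18*+/+ and 5.13, 5.61 and 5.42 in *Il18*-/- mice (change -1.09, adjusted p = 0.0203). The groups of *Apoe* did not overlap. The cholesterol exporter *Abca1* changed by -0.89, and *Apoc2* and *Apoc1* by -0.93 and -0.68. *Apoc3*, an inhibitor of lipoprotein lipase, was the 1 higher gene (2.89) on its brighter probe, while its dimmer probe was lower past the threshold (-0.60, adjusted p = 0.0445). *Apoc3* lies within 10 Mb of *Il18*. Without *Il18*+/+ array 3 or *Il18*-/- array 3 limma called 0 lower genes (5 at an unadjusted p in each case), and without *Il18*+/+ array 2 or *Il18*-/- array 2 it called 1.

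Of the 32 members of the IL-18 pathway and inflammasome list, 19 were tested, and 3 were lower and 0 higher (7 and 0 at an unadjusted p). The median change was -0.50 and the median relative change -0.24. The receptor chains *Il18r1* and *Il18rap*, the inflammasome sensors *Nlrp3*, *Nlrp1b*, *Nlrc4* and *Aim2*, the cytokines *Il1a*, *Il1b*, *Il1rn*, *Ifng*, *Il12a* and *Il12b* were in no group well above background on all 3 arrays, and *Il37* is not on the array. The decoy *Il18bp*, which binds IL-18, read -1.96, -1.79 and -1.63 in *Il18*+/+ and -1.75, -3.16 and -2.44 in *Il18*-/- mice, so that the groups overlapped (-0.66, adjusted p = 0.219). Upstream, *Casp4*, the caspase that senses bacterial lipopolysaccharide in the cytosol, read -1.81, -2.16 and -1.82 against -3.44, -3.51 and -3.33. Its groups were apart and its other probe gave -1.41 (change -1.50, adjusted p = 0.0093). The adaptor *Pycard*, which joins sensors to caspase-1, and the IL-1 receptor *Il1r1* changed by -0.95 and -0.92. *Casp1*, the protease that cuts pro-IL-18, read -2.20, -2.71 and -2.19 against -2.52, -2.83 and -3.04 and was not called (-0.43, adjusted p = 0.301). Downstream of the receptor, *Myd88*, *Irak1*, *Irak2*, *Irak3*, *Irak4* and *Traf6* changed by between -0.63 and 0.23, and none was called in limma. After centring *Irak1* was higher (0.50, adjusted p = 0.0265) and *Irak4* lower (-0.37, adjusted p = 0.033), though not on their other probes, and the list held 1 higher and 4 lower genes. The call of *Casp4* held without any 1 array, whereas *Pycard* and *Il1r1* were lost without *Il18*+/+ array 3, *Il18*-/- array 2 or *Il18*-/- array 3, which left 1 lower gene in each case. *Pycard* was also lost without *Il18*+/+ array 2 (adjusted p = 0.0525) and *Il1r1* without *Il18*+/+ array 1 (adjusted p = 0.0518), and without *Il18*-/- array 1 there were 4. The change of *Casp4* was -0.55 with the slide as a block (adjusted p = 0.999).

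Targets of interferon-gamma, the cytokine that IL-18 is known to induce, were lower in part. Of 25 tested, 5 were lower and 0 higher (13 and 1 at an unadjusted p), with a median change of -0.61 and a median relative change of -0.35 (1 higher and 6 lower after centring). *Igtp*, a GTPase of the immunity-related family, read 1.46, 0.77 and 1.78 in *Il18*+/+ and 0.05, -0.11 and 0.14 in *Il18*-/- mice. Its groups did not overlap (change -1.31, SE 0.25, adjusted p = 0.0123). The other 4 were its relative *Irgm2* (-1.07), the guanylate-binding protein *Gbp6* (-1.20), the peptide transporter *Tap1* (-1.17) and *Nlrc5*, the activator of MHC class I genes (-1.18, with 0.32 and no call on its dimmer probe). *B2m*, the light chain of MHC class I and brightest of the list, changed by -0.40 and was not called. The summed intensity of the 25 genes, as multiples of the reference, was 66.4, 49.7 and 81.5 in *Il18*+/+ and 51.3, 45.4 and 50.2 in *Il18*-/- mice, so that *Il18*+/+ array 3 was the highest and *Il18*+/+ array 2 lay among the *Il18*-/- arrays. Type I interferon targets had 2 of 20 lower and 0 higher (7 and 0 at an unadjusted p), with a median change of -0.51 and a median relative change of -0.25 (4 lower and 0 higher after centring). Of all genes 8.22% were called lower, and the 2 of 20 type I targets lay near that share. The brightest, *Ifi27l2a*, read 6.68, 6.00 and 6.67 against 5.31, 5.29 and 5.00 (change -1.25, adjusted p = 0.0118), and *Zbp1*, a sensor of nucleic acid, changed by -0.93, with 0.18 and no call on its dimmer probe. Without *Il18*+/+ array 3 limma called 0 interferon-gamma and 0 type I targets (7 and 4 lower at an unadjusted p), and without *Il18*-/- array 2 it called 0 and 1 (10 and 6). Without *Il18*+/+ array 1 or 2 there were 4 and 8 interferon-gamma targets, and without *Il18*-/- array 1 or 3 there were 5 and 2, while type I targets numbered 1 without *Il18*-/- array 1 and 0 without *Il18*-/- array 3 (5 lower at an unadjusted p). With the slide as a block the medians were -0.39 and -0.03.

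Of 29 extracellular matrix genes 8 were lower and 0 higher (16 and 0 at an unadjusted p), with a median change of -0.66 and a median relative change of -0.39 (1 higher and 8 lower after centring). *Adamts4*, a protease that cleaves aggrecan-type proteoglycans, read -1.88, -2.47 and -2.35 in *Il18*+/+ and -4.75, -4.19 and -4.91 in *Il18*-/- mice. The chains of type I collagen, the main fibrillar collagen, moved together, with *Col1a1* at 1.99, 2.04 and 2.30 against 1.27, 1.01 and 0.99 and *Col1a2* at 3.87, 3.81 and 4.06 against 3.23, 3.05 and 2.91. The groups of all 3 were apart, and the changes were -2.38, -1.02 and -0.85 (adjusted p = 0.00262, 0.0287 and 0.0356). Thrombospondin 1 (*Thbs1*, -1.39), the basement membrane collagen *Col15a1* (-1.30, with -0.61 and no call on 1 of its other probes) and laminin *Lama4* (-0.82) were also among the 8. *Sparc*, the brightest, changed by -0.20 and was not called. The summed intensity was 176, 171 and 210 in *Il18*+/+ and 167, 131 and 144 in *Il18*-/- mice. *Adamts4* was called without any 1 array, *Col1a1* and *Col1a2* only without *Il18*-/- array 1 (adjusted p = 0.0388 for *Col1a1*), and the list held 2, 2 and 1 lower genes without *Il18*+/+ array 1, 2 or 3 and 5, 3 and 1 without *Il18*-/- array 1, 2 or 3.

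Of 15 fibroblast and adipocyte progenitor markers 4 were lower and 1 higher (6 and 1 at an unadjusted p), with a median change of -0.05 and a median relative change of 0.22 (2 higher and 3 lower after centring). The median turned to 0.04 and 0.09 without *Il18*+/+ array 1 or 3 and was -0.27 without *Il18*+/+ array 2. *Dpt*, a matrix protein of fibroblasts, read -1.68, -2.70 and -1.79 in *Il18*+/+ and -1.30, -0.70 and -1.06 in *Il18*-/- mice (change 1.04, adjusted p = 0.0416). *Dlk1*, the preadipocyte factor that holds back differentiation, read -0.94, -1.17 and -0.58 against -1.98, -1.89 and -1.88 (change -1.02, adjusted p = 0.049). The groups of both were apart. *Gpx3*, the brightest of the list and a secreted peroxidase, gelsolin (*Gsn*) and lumican (*Lum*) changed by -0.87, -0.81 and -0.80. The summed intensity was 171, 142 and 200 against 121, 124 and 119. The list held 0 called genes without *Il18*+/+ array 3, *Il18*-/- array 2 or *Il18*-/- array 3, 2 lower genes without *Il18*+/+ array 2, 1 higher without *Il18*+/+ array 1, and 1 of each without *Il18*-/- array 1.

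**Figure D2:**
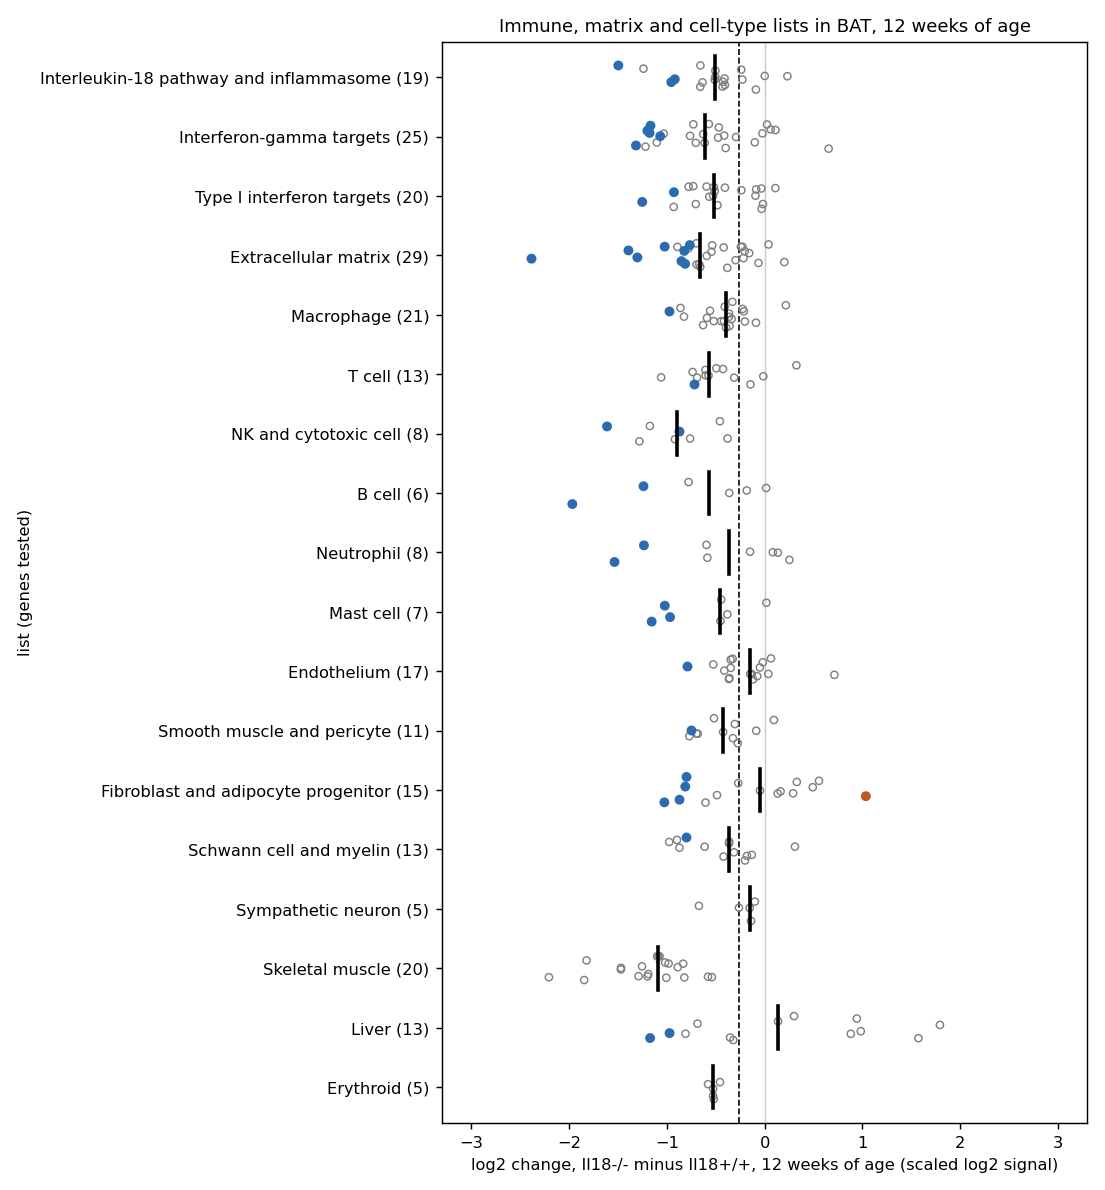
Change (log2, *Il18*-/- minus *Il18*+/+) of each tested gene in 18 lists of immune, matrix and cell-type genes at 12 weeks of age, with filled points for called genes (blue lower, orange higher), a black bar at each list's median and a dashed line at the median of all genes (-0.26). The 20 skeletal muscle genes all lie below 0 with a median of -1.09 and no call, and the 13 liver genes are spread on both sides with a median of 0.14.

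The lists of immune cells had medians below that of all genes, and their called genes were few, to be read beside the 8.22% of all genes that were lower. The T cell and macrophage lists, with 1 of 13 and 1 of 21 genes lower, lay under that share. The NK, B cell, neutrophil and mast cell lists, with 2 of 8, 2 of 6, 2 of 8 and 3 of 7 genes lower, lay above it. With the slide as a block the medians of the B cell, macrophage and mast cell lists were -0.03, 0.02 and 0.43, and those of the NK, T cell and neutrophil lists were -1.18, -0.33 and -0.17. Of 8 NK and cytotoxic cell genes 2 were lower and 0 higher (5 and 0 at an unadjusted p), with a median change of -0.89 and a median relative change of -0.63. *Tbx21*, the transcription factor T-bet of NK and type 1 helper cells, read -4.03, -3.89 and -3.91 in *Il18*+/+ and -5.48, -5.65 and -5.52 in *Il18*-/- mice, and perforin (*Prf1*) read -3.60, -3.55 and -3.24 against -4.14, -4.65 and -4.21. Both pairs of groups were apart (changes -1.61 and -0.87, adjusted p = 0.00782 and 0.0408). The summed intensity was 1.79, 1.64 and 2.31 against 1.12, 1.37 and 1.03, with *Nkg7* as the brightest gene (-0.46, not called). The NK receptor genes *Ncr1*, *Klrb1c* and *Klrk1* and the factor *Eomes* were in no group well above background on all 3 arrays. *Tbx21* was called without any 1 array and *Prf1* was lost whichever was left out, and the list held 1 or 2 lower genes. Among all probes, the eighths with median levels of -4.24 and -3.18 had median changes of -0.36 and -0.29.

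Among lymphocytes, 1 of 13 T cell genes was lower and 0 higher (5 and 0 at an unadjusted p), *Cd3e* of the T cell receptor complex, which read -1.47, -1.29 and -1.11 against -1.83, -2.04 and -2.18 (change -0.73, adjusted p = 0.0305). The T cell list had a median change of -0.57, a median relative change of -0.31 and a summed intensity of 2.0, 2.14 and 2.78 in *Il18*+/+ and 1.61, 1.34 and 1.63 in *Il18*-/- mice, with *Cd4* as its brightest gene. *Cd8a*, *Trat1* and *Bcl11b* were not tested. *Cd3e*, the 1 called gene of the list, lies within 10 Mb of *Il18*. Of 6 B cell genes 2 were lower and 0 higher (3 and 0 at an unadjusted p), with a median change of -0.57 and a median relative change of -0.30 (3 lower and 0 higher after centring). *Cd79a*, the signalling chain of the B cell receptor, read -2.27, -2.11 and -1.94 against -3.12, -3.64 and -3.28 (change -1.24, adjusted p = 0.00782). *Jchain*, which joins antibodies of plasma cells, read -2.11, -4.17 and -2.88 against -5.34, -4.89 and -4.82 (change -1.97, adjusted p = 0.0148). The groups were apart for these lymphocyte genes, and the summed B cell intensity was 0.816, 0.696 and 0.945 against 0.454, 0.405 and 0.475, with *Cd22* as the brightest. The B cell markers *Ms4a1* and *Pax5* as well as *Blk*, *Spib* and *Igll1* were in no group well above background on all 3 arrays. *Cd79a* was called without any 1 array, *Jchain* was lost without *Il18*+/+ array 3 (adjusted p = 0.0726), and *Cd3e* was lost without *Il18*+/+ array 2 or 3 or *Il18*-/- array 2 or 3.

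Of 7 mast cell genes 3 were lower and 0 higher (3 and 0 at an unadjusted p), with a median change of -0.45 and a median relative change of -0.19. *Hdc*, which makes histamine, read -2.06, -1.94 and -1.73 in *Il18*+/+ and -2.83, -3.20 and -3.18 in *Il18*-/- mice (change -1.15, adjusted p = 0.0068). The groups of *Hdc* were apart, and the factor *Gata2* and the tryptase *Tpsb2* changed by -1.02 and -0.97, the latter with -0.27 and no call on its dimmer probe. The summed intensity was 1.82, 1.6 and 2.03 against 1.31, 1.18 and 1.14, with *Mcpt4* as the brightest (-0.38, not called), and *Tpsab1*, *Ms4a2* and *Mrgprb2* were not tested. Neutrophil genes had 2 of 8 lower and 0 higher (4 and 0 at an unadjusted p), the gelatinase *Mmp9* (-1.23) and *Retnlg* (-1.53), with a median change of -0.37 and a median relative change of -0.10 (4 lower and 0 higher after centring). Their summed intensity was 19, 20 and 21.5 against 15.6, 12.1 and 13.4, with *Csf3r* as the brightest, and *Cxcr2*, *Ngp*, *Ltf*, *Mpo* and *Mmp8* were not tested. Of 21 macrophage genes 1 was lower and 0 higher (4 and 0 at an unadjusted p), *Gpnmb* of lipid-laden macrophages (-0.98, relative change -0.71 with adjusted p = 0.107), so that after centring 0 were called. The macrophage list had a median change of -0.39, a median relative change of -0.13 and a summed intensity of 18.6, 15.1 and 22.4 against 14.7, 14.6 and 13.3, with *Csf1r* as the brightest and only *Cd163* untested. Without *Il18*+/+ array 3 the mast cell, neutrophil and macrophage lists held 1, 0 and 0 lower genes (2 macrophage and 4 neutrophil genes at an unadjusted p), and *Hdc* was the gene still called. Without *Il18*-/- array 2 the neutrophil list held 0 as well, without *Il18*+/+ array 1 or *Il18*-/- array 3 it held 1, and the call of *Gpnmb* was lost whichever array was left out. The part of these cell types in the results was not tested.

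Lists of other tissues and cells showed which RNA besides that of adipocytes was measured. Each of the 20 skeletal muscle genes was lower in *Il18*-/- mice, with a median change of -1.09 and a median relative change of -0.83, but limma called 0 (5 lower at an unadjusted p). Their summed intensity was 345, 211 and 209 in *Il18*+/+ and 169, 149 and 67.5 in *Il18*-/- mice, and the brightest, *Tnni2* of fast fibres, read 6.22, 5.63 and 5.53 against 5.17, 4.94 and 3.71 (-1.19, adjusted p = 0.193). With the slide as a block the median of the muscle list turned to 0.70, and with single arrays left out it was between -1.34 (without *Il18*-/- array 1) and -0.67 (without *Il18*-/- array 3). Of 13 liver genes 2 were lower and 0 higher (2 and 0 at an unadjusted p), with a median change of 0.14 and a median relative change of 0.40. They were *Cyp2e1*, a cytochrome P450 that fat expresses as well and the brightest of the list (-1.17), and *Tat* (-0.97). *Il18*-/- array 1 stood apart from the other 5 arrays in the liver list, with a median deviation of 2.74 from the genes' means, where the others lay between -0.89 and 0.09. The summed liver intensity was 22.3, 19.8 and 19.6 against 11.6, 10.3 and 9.55, and the median change was -0.48 without *Il18*-/- array 1 and -0.03 with the slide as a block. After centring 1 liver gene was lower. *Apob*, *Fga*, *Serpina1b*, *Cps1* and *Mup1* were not tested. Erythroid genes had 0 of 5 called (1 lower at an unadjusted p), a median change of -0.53, a median relative change of -0.26 and a summed intensity of 116, 80.3 and 151 against 82.9, 71.6 and 74.7, most of it from *Hba-a1*. The part of muscle, liver and blood RNA in the results was not tested.

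Endothelial genes had 1 of 17 lower and 0 higher (2 and 1 at an unadjusted p), the sialomucin *Emcn* (-0.79; 2 higher and 1 lower after centring), with a median change of -0.15, a median relative change of 0.12 and a summed intensity of 40.8, 39.4 and 51.1 in *Il18*+/+ and 41.6, 34.8 and 37.1 in *Il18*-/- mice, led by *Egfl7*. Smooth muscle and pericyte genes had 1 of 11 lower and 0 higher (5 and 0 at an unadjusted p), with a median change of -0.42 and a median relative change of -0.16 (0 called after centring). It was the contractile protein *Tagln*, also the brightest, which read 2.61, 2.49 and 2.91 against 1.75, 2.08 and 1.92 (change -0.75, adjusted p = 0.0475), and the list's summed intensity was 19.5, 18.7 and 25.7 against 14.3, 15.1 and 14.2. *Tagln* lies within 10 Mb of *Il18*. Schwann cell and myelin genes had 1 of 13 lower and 0 higher (4 and 0 at an unadjusted p), the myelin protein *Mag* (-0.81; 1 higher and 0 lower after centring), with a median change of -0.36, a median relative change of -0.10 and a summed intensity of 14.0, 12.7 and 19.0 against 16.6, 13.8 and 16.6, led by *S100b*, and a median of 0.20 with the slide as a block. In the 5 sympathetic neuron genes tested 0 were called (1 lower at an unadjusted p), with a median change of -0.15, a median relative change of 0.11 and a summed intensity of 2.42, 3.09 and 3.12 against 3.40, 1.91 and 2.41. *Dbh*, *Slc6a2* and *Npy*, which mark the noradrenergic nerve endings that drive BAT, were not well above background on all 3 arrays of any group, nor were *Ddc*, *Uchl1* and *Chga*. Keratinocyte genes had 0 of 5 called (1 lower at an unadjusted p, median -0.11, relative 0.15, summed intensity 2.37, 2.46 and 2.90 against 2.22, 2.10 and 2.55, led by *Trp63*), and a median of 0.07 without *Il18*-/- array 2. Lymph node and thymus stroma had 2 of 4 lower and 0 higher (2 and 0 at an unadjusted p), the chemokines *Cxcl13* (-1.37) and *Ccl19* (-0.68; its 2 other probes gave -1.01, not called, and -1.44, called), with 1 higher and 2 lower after centring, a median change of -0.61, a median relative change of -0.35 and a summed intensity of 0.436, 0.251 and 0.429 against 0.3, 0.269 and 0.231. *Lyve1* was the brightest of these, and *Ccl21a*, *Prox1*, *Ptcra*, *Rag1* and *Foxn1* were not tested. The calls of *Emcn* and *Tagln* were lost whichever array was left out, those of *Mag* and *Ccl19* held in 1 fit of 6 and that of *Cxcl13* in 2 of 6. The part of these cells in the results was not tested.

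*Hspa1a*, the inducible chaperone HSP70, read -0.24, -0.37 and -0.29 in *Il18*+/+ and -4.55, -3.35 and -3.64 in *Il18*-/- mice. The groups lay far apart (change -3.54, SE 0.30, adjusted p = 0.000114), and the call held without any 1 array and with the slide as a block (-4.21, adjusted p = 0.0117). With its partner *Bag3* (-0.97), which was lost without *Il18*+/+ array 3 (adjusted p = 0.0612), it made 2 lower genes of 23 heat shock proteins and chaperones (0 higher; 3 and 1 at an unadjusted p), whose median change was -0.08 and median relative change 0.19 (2 higher and 2 lower after centring; median 0.13 without *Il18*-/- array 2). *Hspa8*, the constitutive chaperone and brightest of the list, changed by -0.44 and was not called. Of 25 immediate early genes 1 was higher and 2 lower (3 and 6 at an unadjusted p), with a median change of -0.35, a median relative change of -0.08 (3 higher and 1 lower after centring) and a median of 0.35 with the slide as a block. Their median was 0.02 without *Il18*+/+ array 3, -0.004 without *Il18*-/- array 1 and -0.65 without *Il18*-/- array 2. *Klf4*, a zinc finger factor, read 0.98, 0.71 and 1.26 against -1.20, -0.38 and -0.54 (change -1.69, adjusted p = 0.00648). *Fosb* changed by -1.56 and *Maff* by 1.3, and the brightest, *Nr4a1*, read 5.59, 5.88 and 4.26 against 0.40, 4.17 and 2.84 and was not called (-2.78, adjusted p = 0.0689). Of these early genes *Klf4* was called without any 1 array, and the calls of *Fosb* and *Maff* were lost whichever array was left out.

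The unfolded protein and integrated stress response had *Trib3* higher and *Sesn2*, a stress-induced brake on mTORC1, lower among 25 genes (2 and 5 at an unadjusted p), with a median change of -0.19 and a median relative change of 0.08 (4 higher and 2 lower after centring). *Sesn2* read -0.54, -0.15 and -0.28 against -1.90, -1.81 and -1.75 (change -1.50, adjusted p = 0.00288), and both calls held without any 1 array. Of 18 glucocorticoid-responsive genes 1 was higher and 2 lower (3 and 2 at an unadjusted p), with a median change of 0.03 and a median relative change of 0.29 (4 higher and 2 lower after centring), and a median of -0.03 without *Il18*+/+ array 1 or *Il18*-/- array 3. The repressor *Zbtb16* read -0.27, -1.31 and -0.41 against 2.30, 1.31 and 1.36 (change 2.32, adjusted p = 0.0111) and held without any 1 array, and the kinase *Sgk1*, which changed by -1.24, held only without *Il18*+/+ array 2. The other lower gene was *Cebpb*, which held only without *Il18*+/+ array 1. *Zbtb16* lies within 10 Mb of *Il18*. Of 18 genes of vitamin D and nuclear receptors 3 were lower and 0 higher (7 and 0 at an unadjusted p), the vitamin D receptor *Vdr* (-2.18), the retinoid receptors *Rara* (-0.86) and *Rxrg* (-0.65), with a median change of -0.14 and a median relative change of 0.12 (5 higher and 2 lower after centring). *Vdr* read -3.97, -3.99 and -3.72 against -5.48, -6.51 and -6.20, with 1 *Il18*-/- array not well above background, and its call held without any 1 array, while the list held 1 lower gene without *Il18*+/+ array 2 or 3 or *Il18*-/- array 2 or 3. Oxidative stress genes had 1 of 18 lower and 0 higher (4 and 1 at an unadjusted p), *Gpx3*, whose call was lost whichever array was left out, with a median change of -0.20 and a median relative change of 0.06 (1 higher and 1 lower after centring). NF-kB targets and cytokines had 1 of 15 lower and 0 higher (3 and 0 at an unadjusted p), the nuclear IκB protein *Bcl3* (-1.06), with a median change of -0.15 and a median relative change of 0.12 (1 higher and 1 lower after centring). The call of *Bcl3* was lost without *Il18*+/+ array 1 or 3 or *Il18*-/- array 2 or 3. Of 24 proliferation genes 1 was higher and 0 lower (1 and 0 at an unadjusted p), cyclin E1 (*Ccne1*, 0.99), which held only without *Il18*-/- array 2, with a median change of -0.24 and a median relative change of 0.02 (4 higher and 0 lower after centring). The medians of the NF-kB and proliferation lists turned to 0.30 and 0.28 with the slide as a block.

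In 4 further lists limma called no gene before centring. The proteasome had 0 of 26 (1 higher at an unadjusted p), a median change of 0.07 and a median relative change of 0.34, with 7 higher and 0 lower after centring, and a median of -0.10 and 0.24 without *Il18*-/- array 1 or 2 and of -0.09 with the slide as a block. The circadian clock had 0 of 17 (1 higher at an unadjusted p), a median change of 0.19 and a median relative change of 0.46, with 4 higher and 0 lower after centring, and a median of -0.04 without *Il18*+/+ array 1. For 11 of these 17 genes the 12-week difference departed from the 6-week one, beside 1.88% of all genes. Hypoxia-responsive genes had 0 of 17 (4 lower at an unadjusted p, median -0.09, relative 0.18), with 2 higher and 0 lower after centring and a median of -0.22 and 0.11 without *Il18*-/- array 1 or 2, and cytosolic ribosomal proteins had 0 of 35 (4 lower at an unadjusted p, median -0.30, relative -0.03) and 0 after centring. Of 19 tested genes of the qRT-PCR list, 2 were higher and 6 lower (3 and 8 at an unadjusted p), with a median change of -0.33 and a median relative change of -0.06. They were *Apoc3* and *Insig1*, and *Cebpb*, *Dio2*, *Ppargc1a*, *Ppargc1b*, *Ucp1* and *Vdr*. The study itself picked the genes of this list. By qRT-PCR in 12-week *Il18*-/- mice it reported *Apoc3* and *Insig1* as higher and *Dio2* and *Vdr* as lower. Unlike the arrays, its qRT-PCR had *Ppargc1a* and *Ppargc1b* (named *Pgc1a* and *Pgc1b* there) higher at that age and *Cebpb* similar between genotypes. It also had *Elovl3* lower, which was not called on the arrays (0.07, adjusted p = 0.971 in limma). *Ucp1*, called lower on the arrays, was not among the genes that its qRT-PCR named as changed at 12 weeks. Its blots had UCP1 protein higher in saline-injected *Il18*-/- mice at that age. With single arrays left out 3 to 5 genes of the list were lower, the fewest without *Il18*+/+ array 2, *Il18*+/+ array 3 or *Il18*-/- array 3, and 1 was higher except without *Il18*-/- array 2 (2). Of 3 Y-linked genes tested, *Uty* was lower (-1.23, adjusted p = 0.0184), with a median of -0.60, while *Eif2s3y* changed by 0.05. The dimmer probe of *Uty* gave -0.57 (adjusted p = 0.198), and its call was lost without *Il18*+/+ array 2 or 3 or *Il18*-/- array 2 or 3.

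**Figure D3:**
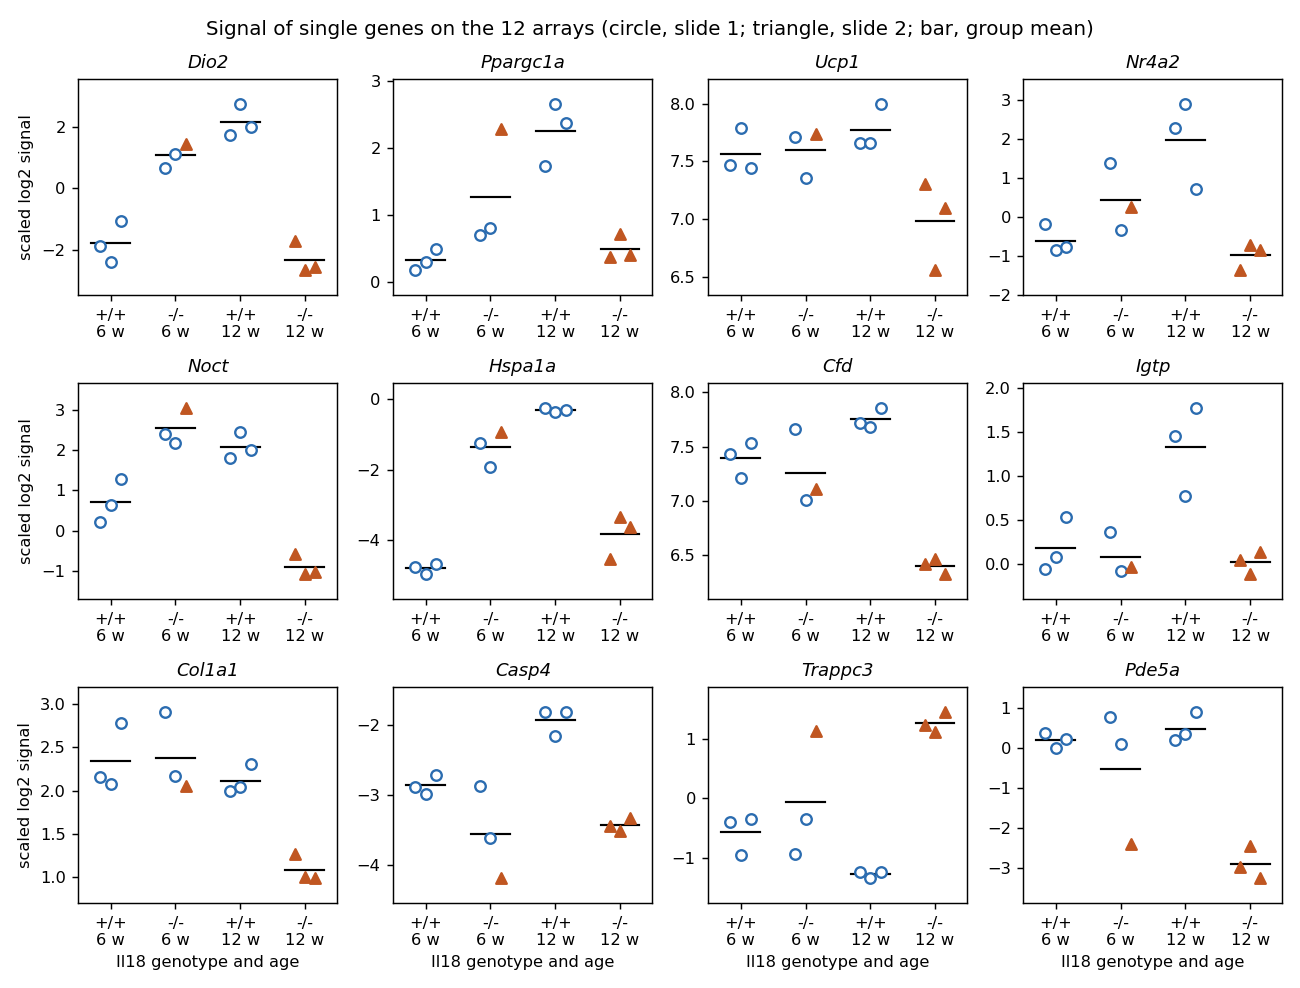
Level (log2 intensity over the 75th percentile reference) of 12 genes on the 12 arrays, by genotype and age, with circles for slide 1, triangles for slide 2 and a bar at each group mean. *Dio2* at 12 weeks lies between 1.75 and 2.76 in *Il18*+/+ and between -2.67 and -1.73 in *Il18*-/- mice, and the 1 triangle among the *Il18*-/- arrays of 6 weeks lies beside the 12-week triangles for *Trappc3* and *Pde5a*.

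Among the 12 largest changes in each direction, *Gldn*, *Apoc3*, *Zbtb16*, *Scn2b* and *Nxpe4* lie within 10 Mb of *Il18* on chromosome 9. Genes with smaller called changes, among them *Cd3e*, *Tagln* and *Nrg4*, also lie within 10 Mb of *Il18*. Away from it, *Noct*, a rhythmic phosphatase of NADP(H) formerly called nocturnin, read 1.80, 2.44 and 1.99 in *Il18*+/+ and -0.59, -1.08 and -1.03 in *Il18*-/- mice. Its groups did not overlap (change -2.98, SE 0.30, adjusted p = 0.000455), and it was called without any 1 array and with the slide as a block (-3.74, adjusted p = 0.0162). The annexin *Anxa8* read 0.52, 1.38 and 0.14 against -2.92, -2.04 and -2.80 (change -3.26, adjusted p = 0.00286). For genes whose *Il18*-/- or *Il18*+/+ arrays were all below the background limit the change is a bound, at least 20.1-fold lower for *Nxpe4*, 3.15-fold lower for *Ctxn2* and 2.73-fold lower for *Speer4d*, and at least 3.28-fold higher for *Scn2b*.

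The medians of further lists kept their sign but moved by over 1.5 times when 1 array was left out. They lay between -0.64 and -0.30 for the brown adipocyte list, -0.45 and -0.17 for thyroid hormone, -0.26 and -0.02 for the respiratory chain, -0.23 and -0.04 for the mitochondrial ribosome, -0.29 and -0.10 for fatty acid oxidation, -0.44 and -0.19 for glycogen metabolism and -0.28 and -0.10 for insulin signalling. The medians lay between -0.27 and -0.07 for NF-kB targets, -0.25 and -0.12 for the unfolded protein response, -0.29 and -0.04 for oxidative stress, -0.27 and -0.05 for nuclear receptors, -0.44 and -0.16 for apolipoproteins, -0.38 and -0.04 for proliferation, -0.39 and -0.20 for ribosomal proteins and -0.64 and -0.24 for the qRT-PCR list. In cell types they lay between -0.56 and -0.19 for macrophages, -0.70 and -0.29 for T cells, -0.76 and -0.31 for mast cells, -0.33 and -0.06 for endothelium and -0.38 and -0.02 for sympathetic neurons. A slide block moved the medians to -0.75 for the brown adipocyte list, -0.40 for fatty acid oxidation, -0.30 for fatty acid synthesis, -0.16 for glycolysis, -0.23 for glycogen metabolism, -0.03 for insulin signalling, -0.23 for adipokines, -0.14 for white adipocyte markers, -0.25 for heat shock proteins, -0.06 for the unfolded protein response, -0.19 for apolipoproteins and -0.33 for the extracellular matrix. With that block they were also -0.18 for the citric acid cycle and 0.12 for glucocorticoid-responsive genes. In cell types the block gave -0.15 for smooth muscle and pericytes, -0.05 for endothelium and -0.02 for sympathetic neurons. It gave -0.23 for lymph node and thymus stroma and -0.235 for keratinocytes.

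Some of the largest changes moved with the slide. *Trappc3*, a subunit of a vesicle tethering complex, read -1.25, -1.35 and -1.24 in *Il18*+/+ and 1.24, 1.12 and 1.47 in *Il18*-/- mice, while at 6 weeks of age the *Il18*-/- arrays read -0.94 and -0.35 on slide 1 and 1.14 on slide 2. *Pde5a*, the cyclic GMP phosphodiesterase, read 0.21, 0.36 and 0.92 against -2.99, -2.44 and -3.26, and the *Il18*-/- arrays of 6 weeks read 0.79 and 0.11 on slide 1 and -2.41 on slide 2. In both the *Il18*-/- array of 6 weeks on slide 2 lay nearer to the 12-week *Il18*-/- arrays than to its own group. The changes of 2.56 and -3.40 became 0.77 and -0.54 with the slide as a block. *Eml2* (2.33), *Pex10* (2.19), *Zfp955b* (1.90) and *Prmt1* (1.80) likewise became 0.68, 0.66, 0.70 and 0.51. These are the probes with the lowest adjusted p, and the other probe of *Zfp955b* was not called (0.45, adjusted p = 0.161), while the brighter of *Eml2* gave 1.36 (adjusted p = 0.0117) and 0.31 with the slide as a block. For *Dio2* the *Il18*-/- arrays of 6 weeks read 0.68, 1.14 and 1.44, for *Ppargc1a* 0.69, 0.80 and 2.27, and for *Hspa1a* -1.25, -1.94 and -0.92. In each of these genes the array on slide 2 was the highest of the 3. The readings at 6 weeks rest on that 1 array of slide 2, and the part of the slide in the changes was not tested. Of 210 genes chosen for naming, 196 were tested and 114 were called, of which 96 were called after centring too, 42 whichever array was left out, 16 in none of those 6 fits, and 7 with the slide as a block (*Dio2*, *Ppargc1a*, *Noct*, *Hspa1a*, *Gldn*, *Scn2b* and *Nxpe4*). The calls lost after centring were those of *Ppara*, *Sik1*, *Adcy3*, *Rxrg*, *Acot1*, *G0s2*, *Lpl*, *Gys1*, *Trib1*, *Apln*, *Fosb*, *Apoc1*, *Thbs1*, *Gpnmb*, *Tagln*, *Dlk1*, *Mag* and *Cyp2e1*. Among the 16 were *Rxrg*, *Slc25a20*, *Aqp7*, *Lpl*, *Maff*, *Fosb*, *Gpx3*, *Lama4*, *Gpnmb*, *Prf1*, *Tpsb2*, *Emcn*, *Tagln*, *Dlk1* and *Cyp2e1*. The difference between genotypes at 12 weeks departed from that at 6 weeks in limma's test of the difference for 400 of 21333 genes (1.88%).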

How the data were processed

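Whole BAT of *Il18*+/+ and *Il18*-/- mice was measured on 1-colour Agilent arrays, 3 per genotype at 12 weeks and 3 per genotype at 6 weeks of age. The authors deposited scanner files of Feature Extraction, version 10.7.3.1 per the file headers, whereas the methods name another version, and the values are processed signal intensity. The deposited series table was checked against these files, and all 755712 values were equal within 0.6%.

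Intensities of non-control spots were read, spots marked as outliers were left out, repeated spots were averaged by probe, and values were set on the log2 scale and scaled to the 75th percentile of the spots well above background on each array. Of 55681 probes, 28743 were tested, namely those well above background on all 3 arrays of 1 or more of the 4 groups. For the 432 probes in more than 1 spot, the limit on an array was 50% of the spots well above background. The 12 arrays were fitted in 4 groups with limma 3.58.1 in R 4.3.3, and p was adjusted by the method of Benjamini and Hochberg over all tested probes with a threshold of 0.05. The difference between genotypes at 12 weeks of age, and its departure from the difference at 6 weeks, were the contrasts. Precision is given by the standard error of each change, and at 12 weeks the arrays had between 29619 and 35136 spots well above background. Each gene was read by its brightest tested probe. Of 36163 gene names on the array 22055 matched RefSeq, and array positions are those of mm9.

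Gene lists were written by hand: 51 lists with 1043 members, of which 1036 were on the array and 983 were distinct. Members and lists were chosen with earlier results of these data known. Named genes were *Il18* and all members of the lists of the IL-18 pathway, of brown adipocytes and of qRT-PCR, and from each other list the brightest member and up to 6 called members in each direction by size of change. The 12 genes in each direction with the largest change, among called genes without overlap between genotypes, were added, and these were read from their probe of lowest adjusted p where no list held them. Other members are named where they were not tested. Some genes that this rule names are not reported here, and the counts of genes and of list members include them. Summed intensity is the sum over the tested genes of a list on the linear scale, in multiples of the reference. Promoter windows of 250 bases were taken from RefSeq, build GRCm38.p6.

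Alternatives were other scalings, normexp background with an offset of 50, other filters, outlier spots kept, the deposited series table, the slide as a fixed or random block, replicate numbers as a block, the 12-week arrays alone, an intensity trend and each 12-week array left out in turn. Replicate numbers do not pair the animals.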

Additional observations from a re-analysis of the deposited data

Results flagged for a closer look

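The difference between genotypes was not the same at 12 and 6 weeks of age for 576 probes, by limma's test of the difference itself. The values below are the log2 change at 12 weeks minus that at 6 weeks of genes named here that passed this test, and a negative value means that the *Il18*-/- arrays were lower, beside the *Il18*+/+ arrays, at the later age than at the earlier one. Such a value can hold a change of sign. At 6 weeks of age limma had *Dio2* (2.87, adjusted p = 0.00297) and *Hspa1a* (3.44, adjusted p = 0.00015) higher in *Il18*-/- mice, unlike at 12 weeks (-4.49 and -3.54). *Pik3ip1* was lower at 6 weeks (-1.51, adjusted p = 0.0491) and higher at 12 weeks (2.57). The 6-week *Il18*+/+ arrays read -1.87, -2.40 and -1.07 for *Dio2* and -4.76, -4.98 and -4.68 for *Hspa1a*.

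Among regulators of brown adipocytes and of cAMP signalling the values were -7.36 for *Dio2*, -2.69 for *Ppargc1a*, -1.11 for *Ppargc1b*, -2.33 for *Gk*, -1.96 for *Ffar4*, -1.77 for *Cebpb*, -3.97 for *Nr4a2*, -3.32 for *Sik1*, -2.31 for *Adcy5*, -2.13 for *Pde4d* and -1.37 for *Crem*. The vitamin D receptor *Vdr* gave -3.44, with 2 of 3 *Il18*-/- arrays well above background at 12 weeks of age.

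In metabolism and secretion they were -1.89 for *Ppp1r3d*, 4.08 for *Pik3ip1*, 1.51 for *Trib3* and -1.22 for *Cfd*. In stress and early response genes they were -6.98 for *Hspa1a*, -1.27 for *Bag3*, -2.11 for *Sesn2*, -2.32 for *Klf4* and -2.10 for *Sgk1*. The clock factor *Tef* gave 1.73, in a circadian clock list of which 11 of 17 genes passed this test (median change 0.19 at 12 weeks and -1.03 at 6 weeks of age), beside 1.88% of all genes, and cyclin E1 (*Ccne1*) gave 1.70.

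In matrix and immune genes they were -5.69 for *Adamts4*, -3.00 for *Thbs1*, -1.68 for *Col15a1*, -2.10 for *Mmp9* and -1.60 for *Gbp6*. Among the largest changes at 12 weeks they were 5.62 for *Erdr1*, 2.45 for *Gldn*, 2.34 for *Pex10*, 2.65 for *Syne3*, -6.25 for *Dhrs9*, -2.89 for *Anxa8*, -3.81 for *3930402G23Rik* and -4.81 for *Noct*. *Dhrs9* was well above background on 1 of 3 *Il18*-/- arrays at 12 weeks and on 2 of 3 *Il18*+/+ arrays at 6 weeks of age. *Scn2b* and *Speer4d* passed the test as well, but no difference is given for them, since *Scn2b* was well above background on no *Il18*+/+ array at either age and *Speer4d* on no *Il18*-/- array at 12 weeks of age.

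All *Il18*+/+ arrays lay on slide 1, while the *Il18*-/- arrays lay on both slides at 6 weeks and on slide 2 at 12 weeks of age, and with the slide as a block 72 probes in place of 576 passed this test. That block is estimated from the 3 *Il18*-/- arrays of 6 weeks.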

How the results depend on the processing

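The count of probes that differed at 12 weeks of age was 2495, with 181 higher and 2314 lower. It was 5165 with the 75th percentile over all probes (2284 higher, 2881 lower), 4802 with quantile normalization (2352 and 2450) and 5351 with median centring (2849 and 2502). It was 178 without the filter, 14 with the slide as a fixed block, 3870 with the slide as a random block and 2111 with replicate numbers as a block, and between 360 and 2020 with single arrays left out. With normexp background, the stricter filter, outlier spots kept, the series table, the 12-week arrays alone or an intensity trend it stayed within 1.5 times 2495. The random block used an estimated correlation within slides of -0.038, so that 3870 is not a count with a slide effect removed.

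The count of probes whose difference departed from that at 6 weeks was 576, and 1192, 1163 and 1173 under the 3 scalings in the same order. It was 58 without the filter, 72 with the slide as a fixed block, 389 with replicate numbers as a block and 1053 with an intensity trend, and between 180 and 472 with single arrays left out. Genes past 2-fold numbered 1462, and 958, 843 and 913 under the 3 scalings, 423 with normexp background, 3562 without the filter and 870 with the stricter filter, and between 1214 and 2053 with single arrays left out. The scalings move the median of all genes, which was -0.26 and, after centring, 0.01, and the cause of that shift was not tested.

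Of 114 named genes past the threshold, 101, 97 and 96 were called under the 3 scalings, 104 with normexp background, 22 without the filter, 94 with replicate numbers as a block, 109 in the 12-week arrays alone and 113 with an intensity trend. With single arrays left out between 44 (without *Il18*+/+ array 3) and 84 (without *Il18*-/- array 1) were called. With the slide as a fixed block 7 were called and 106 kept their sign without a call, while *Slc25a20* turned from 1.09 to -0.0697 (adjusted p = 0.999), and the cause was not tested. That block is estimated from 3 arrays.

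Signal over background limits the dim probes. The number of well-above-background spots was lowest on *Il18*-/- array 2, at 29619, and its median local background was 53.5.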
